A study of Mus musculus with 5 samples.

Results

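The RNAs described here are 9 long noncoding RNAs of the mouse forelimb bud: Malat1 and Neat1, which stay in the nucleus, and Gas5, Snhg1, Snhg3, Snhg5, Snhg6, Snhg8 and Snhg12, which are hosts of small nucleolar RNAs (snoRNAs). They were selected by gene symbol, with their log2 intensities in double mutant and wild-type arrays already known, and every probe set annotated with 1 of these symbols alone was kept. That gave 25 of the 45037 probe sets tested and 9 of the 18193 genes they stand for. A further 2 probe sets carried a host symbol together with a snoRNA symbol and were not assigned to either. RNA came from forelimb buds at E11.5 (days of embryonic development) on a C57Bl/6 background and was measured on 5 arrays. The wild-type group had 3 arrays, and the other group had 2 arrays from embryos of genotype Sost-/-; Sostdc1-/-, which lack Sost and Sostdc1, a pair of secreted antagonists of Wnt signalling. Samples were not pooled, per the labels, and the sources used here do not give which part of either gene was deleted.

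A snoRNA host gene is transcribed and spliced, and its introns are trimmed to snoRNAs, which guide chemical modification of ribosomal RNA. The spliced exons that remain encode no conserved protein, and for several hosts, Gas5 among them, they are degraded by nonsense-mediated decay when ribosomes read them. Many hosts begin with a terminal oligopyrimidine tract, the pyrimidine-rich start shared with ribosomal protein messenger RNAs. Malat1 is an abundant RNA of nuclear speckles, the nuclear bodies rich in splicing factors. Its 3' end is cut by RNase P and held by a triple helix in place of a poly-A tail. Neat1 is the RNA around which paraspeckles, another nuclear body, are built.

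Start sites of 4 hosts are shown to set windows with CTTTC or CTTTT, letters of the kind found in oligopyrimidine starts, beside 1 without either. That window, of Snhg1, still holds a run of pyrimidines, tttttcctt, after its annotated start. Each line runs from 20 bases before to 30 bases after the annotated start, 5′ to 3′ on the gene's strand, from RefSeq on GRCm38.p6, and capitals mark CTTTC or CTTTT.
Gas5 (chr1:161035146-161035195, plus strand): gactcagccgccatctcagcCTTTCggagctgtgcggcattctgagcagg
Snhg12 (chr4:132308658-132308707, plus strand): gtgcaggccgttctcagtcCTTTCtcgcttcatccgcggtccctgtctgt
Snhg5 (chr9:88522868-88522917, minus strand): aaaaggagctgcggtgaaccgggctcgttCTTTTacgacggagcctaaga
Snhg1 (chr19:8723467-8723516, plus strand): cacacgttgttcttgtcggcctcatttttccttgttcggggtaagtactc
The table held 8 start windows for 7 of the 9 RNAs, with none for Neat1 or Snhg6. CTTTC was found on the gene's strand in 2 of the 8 windows, those of Snhg12 and the Gas5 start shown, and CTTTT in 1, that of Snhg5. The other Gas5 start (chr1:161034581-161034630) and the windows of Snhg1, Snhg3, Snhg8 and Malat1 held neither. The Snhg8 window, not shown, holds a run of pyrimidines, ctcttt, that begins at its annotated start. Among 32851 windows of the same length, CTTTC was in 6.57% on the gene's strand (12.5% on either strand) and CTTTT in 5.17% (9.84% on either strand). These matches describe letters in the windows and no more.

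Median intensities of the 5 arrays were 39.4 to 44.4 on the linear scale. The probe set 1450179_at of Sost was lower in double mutants by 2.17 on the log2 scale, with means of 4.29 and 6.47, and the Sostdc1 probe set 1460250_at stood at 6.82 and 9.17, while the second probe sets of these genes differed by −0.73 and 0.05. Both double mutant arrays held Xist, the RNA of the inactive X chromosome, at 12.37 and 11.75, and the Y-linked Eif2s3y at 8.36. Wild-type replicate 1 held Xist at 12.28 and Eif2s3y at 3.20, and wild-type replicates 2 and 3 held Xist at 5.73 and 5.70 and Eif2s3y at 8.49 and 8.42. High Xist together with high Eif2s3y in both double mutant arrays goes against 1 embryo per array, so how many embryos stand behind each of them is not settled. The bacterial poly-A spike-in Dap averaged 7.09 in double mutants against 3.30 in the wild-type arrays, and the 3′ minus 5′ difference of the Gapdh controls was 0.21 ± 0.08 (SD, n = 2) and −0.10 ± 0.04 (SD, n = 3; exact permutation p = 0.1, two-sided, the smallest that 10 splits allow). For the Actb controls it was 0.65 and 0.56 in double mutants against 0.20, 0.24 and 0.68, so the groups overlapped (exact permutation p = 0.4, two-sided). With the spike-ins apart in this way, RNA preparation cannot be told apart from genotype in the differences given here. The level of all 10 limb mesenchyme markers exceeded 5.41, the median over probe sets, and limma called 1 of them lower. Of 10 surface ectoderm markers limma called 5 higher, with summed intensities of 5088 to 5344 in double mutants and 3625 to 3941 in wild type, and of 9 endothelial markers it called 5 lower (1895 to 1973 and 2494 to 2658). It also called 4 of 8 erythroid markers lower (44831 to 50132 and 51286 to 54946) and 1 of 7 myogenic markers (1944 to 2430 and 2632 to 3002). Of 5 neural crest markers 1 was called lower (1483 to 1609 and 1701 to 2040). Of 8 macrophage and leukocyte markers 0 were called (808 to 1043 and 1054 to 1246). Among 6 trunk and somite markers 1 was called higher and 1 lower (2593 to 2843 and 2209 to 2327). Over all genes 14.7% were called, 6.56% higher and 8.14% lower. The part of these markers in the values below was not tested, and in whole limb buds a change in the number of cells of a type and a change in RNA per cell cannot be told apart.

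The noncoding RNAs leaned to higher signal in double mutants. Differences are double mutant minus wild type in log2 intensity, with the standard error of a limma fit to the whole table, and "called" means that this fit gave an adjusted p under 0.05. Because the RNAs were chosen with this comparison known, their differences and calls are descriptions, given without p-values. The fit called 11 of the 25 probe sets higher and 0 lower, where 18.2% of all probe sets were called, 8.7% higher and 9.52% lower. An unadjusted p under 0.05 was found for 14 of the 25 and for 32.2% of all probe sets. The 2 groups did not overlap in 15 of the 25, all with double mutants higher, against 45.2% of all probe sets in either direction and 22.1% in that direction. The median difference over the 25 was 0.66, and −0.01 over all probe sets. Leaving out arrays lowered the calls over the whole table too. They fell from 8206 to 5108 without wild-type replicate 3, to 2939 without wild-type replicate 1 and to 0 without wild-type replicate 2. The count of 11 became 0 without double mutant replicate 1 or without wild-type replicate 2 (12 of 25 at an unadjusted p under 0.05 each time, against 31.2% and 24.7% of all probe sets), 6 without double mutant replicate 2 and 7 without wild-type replicate 1.

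**Figure D1:**
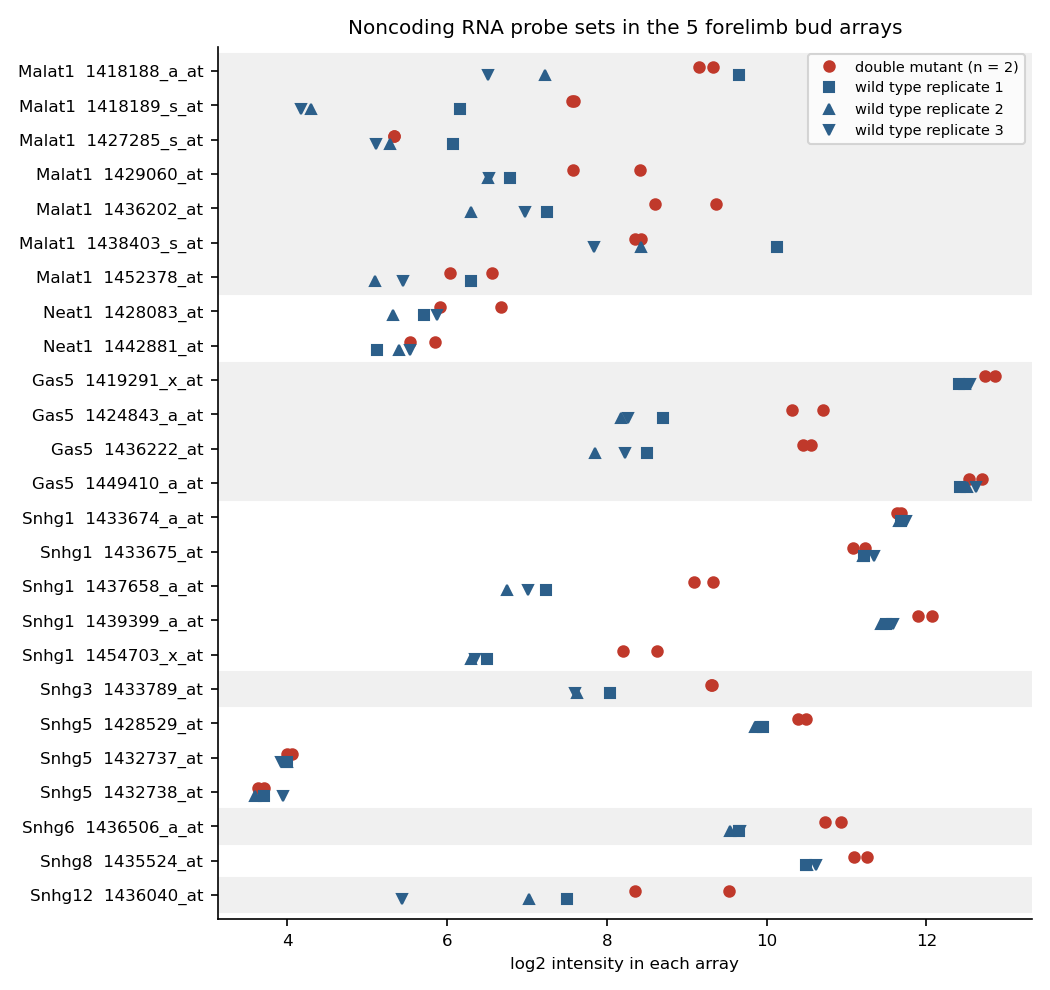
Log2 intensity (horizontal axis) of each of the 25 probe sets (rows, grouped by gene) in each of the 5 arrays, with red circles for the 2 double mutant arrays and blue symbols for the 3 wild-type arrays. The groups do not overlap in 15 rows, and wild-type replicate 1 (blue square) is the highest array for 3 of the 7 Malat1 probe sets, 1418188_a_at, 1427285_s_at and 1438403_s_at.

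Malat1 was measured by 7 probe sets, and they did not give 1 answer. On 1436202_at the double mutant arrays read 9.37 and 8.60 and the wild-type arrays 7.25, 6.30 and 6.97, for a difference of 2.14 ± 0.39 (SE). On 1429060_at they read 8.42 and 7.58 against 6.79, 6.51 and 6.52, a difference of 1.39 ± 0.28 (SE). On these 2 probe sets every double mutant array was above every wild-type array, and both were called higher. The largest Malat1 difference, 2.70 ± 0.70 (SE), was on 1418189_s_at, where double mutants read 7.59 and 7.56 and wild type 6.17, 4.30 and 4.18. Here the groups were also apart, but wild-type replicate 1 stood well above the other wild-type arrays, and the probe set was not called.

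On the remaining Malat1 probe sets the groups overlapped. The probe set 1418188_a_at read 9.16 and 9.33 in double mutants and 9.65, 7.22 and 6.52 in wild type, so that wild-type replicate 1 exceeded both double mutant arrays. Without that array the difference on 1418188_a_at moved from 1.45 to 2.38. The brightest Malat1 probe set, 1438403_s_at, read 8.35 and 8.42 in double mutants and 10.13, 8.43 and 7.84 in wild type. Its difference of −0.41 ± 0.74 (SE) was smaller than the spread between wild-type arrays and became 0.25 without wild-type replicate 1. The last 2, 1452378_at and 1427285_s_at, differed by 0.68 ± 0.42 and −0.16 ± 0.32 (SE). The suffix _s_at, on 3 of the 7, marks a design that can bind more than 1 transcript.

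Within the wild-type group Malat1 set replicate 1 apart. All 7 Malat1 probe sets were higher in that array than in the mean of wild-type replicates 2 and 3, by 0.28 to 2.78, where the middle of all 45037 probe sets ran from −0.12 (lower quartile) to 0.08 (upper quartile). The excess of the 2 called Malat1 probe sets, 1436202_at and 1429060_at, was passed by 1608 and 4736 probe sets. Only 4 probe sets exceeded the 2.78 of 1418188_a_at, namely the 3 of Xist (4.86 to 7.76) and 1 of Zfp292, a zinc finger gene (3.11). These 4 were looked up after the value of Malat1 was seen, and with 1 array on one side there is no test. The array also carries controls for 18S rRNA, another RNA with no poly-A tail. Its 5′ control read 8.56 and 12.09 in double mutants and 13.64, 13.08 and 6.99 in wild type, its middle control 8.60 and 10.20 against 9.47, 9.44 and 7.38, and its 3′ control 8.95 and 10.32 against 8.37, 8.36 and 7.37. Of the 21 pairs of a Malat1 probe set and an 18S control, 1 had the same order of arrays, 1438403_s_at with the 5′ control, and that match rests on 8.43 against 8.42 in a pair of arrays. These controls were compared after the Malat1 values were seen, and their part in those values was not tested.

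**Figure D2:**
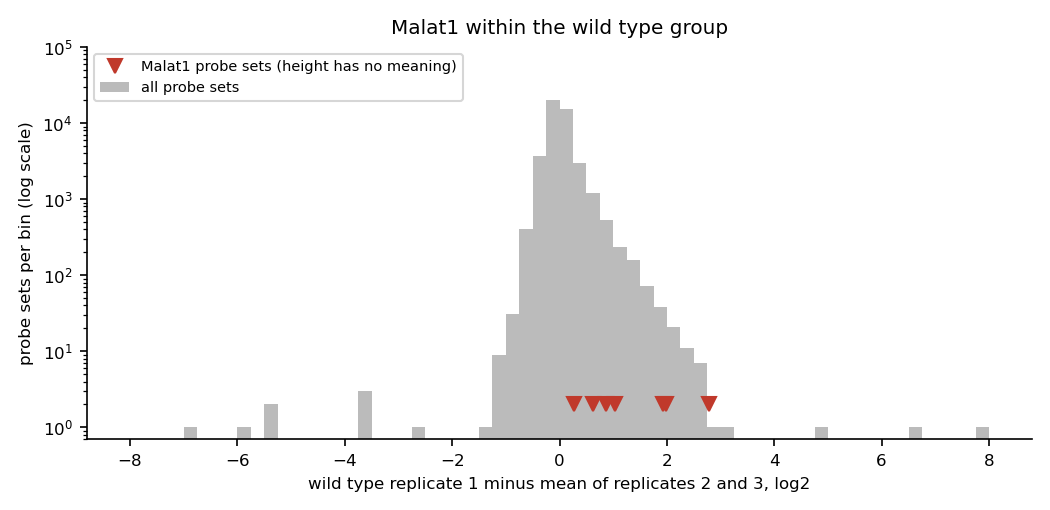
Histogram of the log2 difference between wild-type replicate 1 and the mean of wild-type replicates 2 and 3 for 45037 probe sets, with a log vertical axis of probe sets per bin. Red triangles mark the 7 Malat1 probe sets, which all lie to the right of 0, from 0.28 to 2.78.

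Neat1 had 2 probe sets, both with a higher mean in double mutants. On 1428083_at double mutants read 6.67 and 5.91 and wild-type arrays 5.71, 5.33 and 5.87, which differ by 0.66 ± 0.30 (SE). The lower double mutant array was almost level with wild-type replicate 3. On 1442881_at the arrays read 5.53 and 5.85 against 5.13, 5.40 and 5.53, and the groups met, with a difference of 0.34 ± 0.17 (SE). Neither was called, and the first ranged from 0.27 to 1.04 as each array was left out.

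Gas5, a host of box C/D snoRNAs named for its rise in growth-arrested cells, split into 2 pairs of probe sets. On 1436222_at double mutants read 10.56 and 10.45 and wild-type arrays 8.50, 7.85 and 8.23, which differ by 2.31 ± 0.21 (SE) or 4.97-fold. On 1424843_a_at they read 10.70 and 10.32 against 8.70, 8.18 and 8.27, a difference of 2.13 ± 0.22 (SE). Both were called higher, and the nearest arrays of the 2 groups lay far apart. The other pair differed little. The probe set 1449410_a_at read 12.70 and 12.54 against 12.42, 12.51 and 12.62, a difference of 0.10 ± 0.09 (SE) with overlapping groups. On 1419291_x_at the arrays read 12.86 and 12.73 against 12.41, 12.48 and 12.55, which was 0.32 ± 0.07 (SE), without overlap and not called.

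Snhg1, which also carries box C/D snoRNAs in its introns, showed the same kind of split over 5 probe sets. Readings on 1437658_a_at were 9.34 and 9.09 in double mutants against 7.24, 6.75 and 7.02 in wild type, differing by 2.21 ± 0.17 (SE). Readings on 1454703_x_at were 8.63 and 8.20 against 6.50, 6.30 and 6.35, a difference of 2.03 ± 0.15 (SE). Its suffix _x_at, also on 1419291_x_at of Gas5, marks a design that may cross-hybridise. The probe set 1439399_a_at was also called and was higher by 0.48 ± 0.08 (SE), with 11.90 and 12.07 against 11.49, 11.43 and 11.58. The last pair stood level, at −0.04 ± 0.05 (SE) on 1433674_a_at and −0.10 ± 0.08 (SE) on 1433675_at, with readings of 11.08 to 11.75 in all arrays. The linear ratio thus ran from 0.93 to 4.62 between probe sets of Snhg1, and from 1.07 to 4.97 between those of Gas5.

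How far the probe sets of 1 gene lay apart was set beside other genes with as many probe sets. The Malat1 differences spanned 3.11 on the log2 scale, and 12 of the 97 genes with 7 probe sets spanned more, with a median of 2.04. Gas5 spanned 2.21, exceeded by 182 of 1093 genes with 4 probe sets (median 1.03), and Snhg1 spanned 2.31, exceeded by 126 of 463 genes with 5 (median 1.58). Neat1 and Snhg5, at 0.32 and 0.61, lay near the medians for 2 and 3 probe sets (0.29 and 0.63). The spans of Malat1, Gas5 and Snhg1 thus lay above the medians without being the widest, and where each probe set lies along its transcript was not used here.

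**Figure D3:**
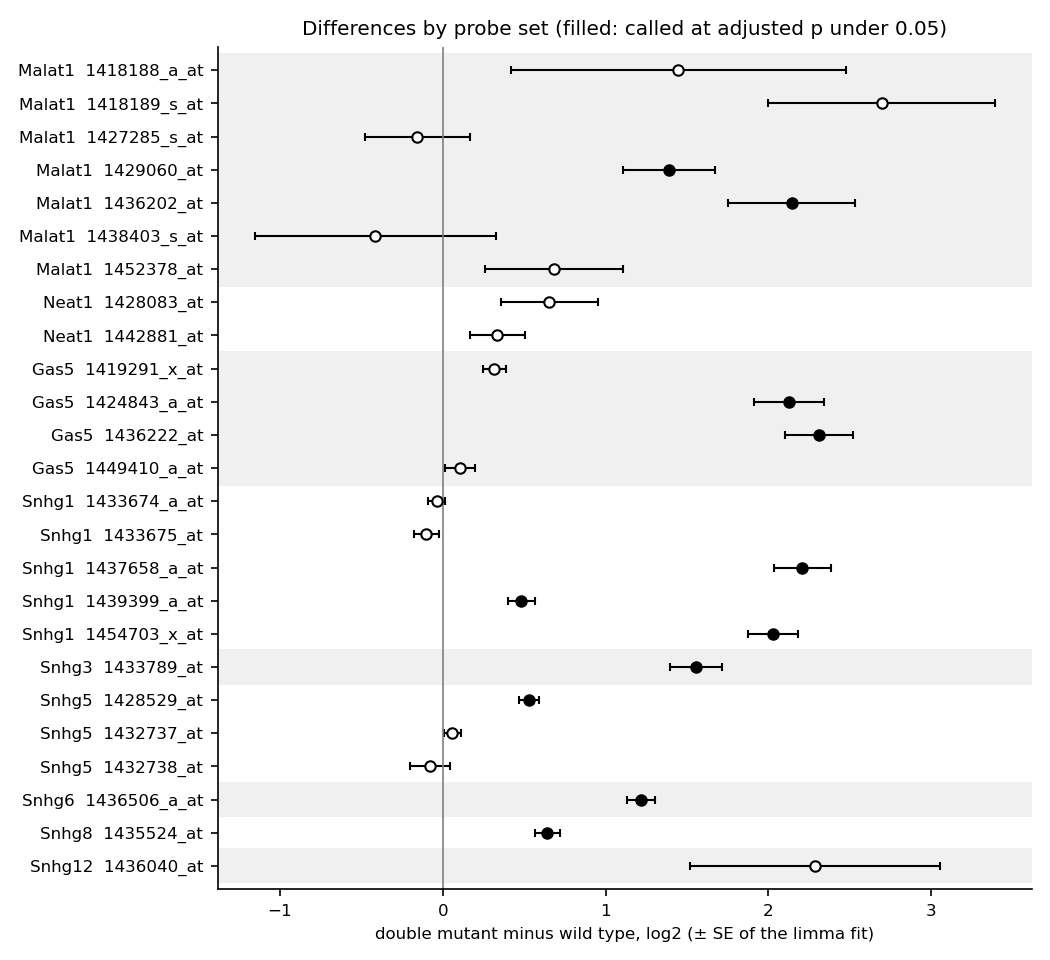
Log2 difference, double mutant minus wild type, of the 25 probe sets (rows, grouped by gene), with bars of ± 1 SE from the limma fit; filled points were called at an adjusted p under 0.05. The probe sets of Malat1 run from −0.41 to 2.70, those of Gas5 from 0.10 to 2.31 and those of Snhg1 from −0.10 to 2.21.

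The hosts with a single probe set were all higher. Snhg3, a host of box H/ACA snoRNAs, read 9.30 and 9.32 in double mutants against 8.04, 7.62 and 7.61 in wild type, differing by 1.55 ± 0.16 (SE). Snhg6, a box C/D host, read 10.73 and 10.93 against 9.65, 9.54 and 9.66, a difference of 1.22 ± 0.09 (SE). Snhg8, a box H/ACA host, read 11.26 and 11.09 against 10.49, 10.50 and 10.61, a difference of 0.64 ± 0.08 (SE). These 3 were called, their arrays did not overlap between groups, and as each array was left out their differences kept within 1.48 to 1.70, 1.12 to 1.31 and 0.56 to 0.73.

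Snhg12 and Snhg5 were less clear. Snhg12 read 9.53 and 8.35 in double mutants and 7.50, 7.03 and 5.43 in wild type. Its difference of 2.29 ± 0.77 (SE) was close to the largest of Gas5, but each group held an array far from the others, and it was not called. Without wild-type replicate 3, the lowest, it was 1.68. Snhg5 was higher on 1428529_at, with 10.50 and 10.39 against 9.95, 9.85 and 9.94, a difference of 0.53 ± 0.06 (SE) that was called. Its other probe sets, 1432737_at and 1432738_at, read 3.60 to 4.06 in all 5 arrays, below the median level of 5.41, where the bacterial control Trpn averaged 3.10 and 3.07.

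Taking the brightest probe set of each gene, limma called 5 of the 9 RNAs higher (Snhg1, Snhg3, Snhg5, Snhg6 and Snhg8) and 0 lower, where 14.7% of all genes were called, 6.56% higher and 8.14% lower. Genes with the nearest pattern over the 5 arrays were found by Euclidean distance after subtracting the wild-type mean, with the brightest probe set of each. For Gas5 that was 1419291_x_at, which differed by 0.32 and was not called. The nearest was Slc19a2, a thiamine transporter gene (distance 0.028, difference 0.33). Next came Smox, which encodes spermine oxidase (0.043 and 0.29), and Bola3 (0.045 and 0.30). The 2 called Gas5 probe sets were not matched in this way. For Malat1 on 1438403_s_at the nearest genes were Fbxl18 (0.74), Sntb2 (0.81) and Thoc2l (0.86), all highest in wild-type replicate 1 as Malat1 was. Each list is the nearest 3 of 18192 genes.

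Most genes beside these RNAs on their chromosomes were not called. Malat1 and Neat1 are neighbours on chromosome 19 in the order of measured genes, and 16 other measured genes flank the 9 loci, with a median difference of −0.10. Of these, limma called 1 higher and 3 lower, with the 14.7% of all genes as background. Around Snhg1, Slc3a2, an amino acid transporter subunit, stood at 9.84 and 10.20 (−0.36 ± 0.06, SE, adjusted p = 0.0236) and Wdr74, a ribosome assembly factor, at 9.41 and 9.80 (−0.39 ± 0.08, SE, adjusted p = 0.0428). Syncrip beside Snhg5, an RNA-binding protein gene, fell by 0.44 ± 0.07 (SE, adjusted p = 0.0220), and the kinase gene Sgk3 beside Snhg6 rose by 0.47 ± 0.10 (SE, adjusted p = 0.0467). The largest differences among those not called were those of Zfp949 beside Snhg5 (1.06, adjusted p = 0.0604), Rab42 beside Snhg12 (−0.67) and Ltbp3 beside Malat1 (−0.59), while Zbtb37 and Cenpl beside Gas5 differed by 0.06 and 0.03. These neighbours were looked up after the values of the noncoding RNAs were seen.

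Among other snoRNA hosts, 8 of 13 measured rose. By the brightest probe set limma called 8 higher and 0 lower, where 6.56% of all genes were called higher and 8.14% lower. An unadjusted p under 0.05 was found for 11 of the 13 and for 28.7% of all genes. The median difference over the 13 was 1.01, against −0.02 over all genes. This list and those that follow were chosen with earlier results of these data known, and genes were named by smallest p. Their counts and adjusted p-values are therefore descriptions too. In the host list the smallest p was that of 1110038B12Rik, at 12.16 and 12.04 in double mutants and 11.10, 11.07 and 11.09 in wild type (1.01 ± 0.06, SE, adjusted p = 0.00597). Snhg4 read 9.84 and 9.80 against 8.76, 8.54 and 8.55 (1.21 ± 0.09, SE, adjusted p = 0.00723), and Rian, an imprinted host of box C/D snoRNAs, read 11.34 and 11.36 against 9.71, 9.98 and 9.66 (1.57 ± 0.12, SE, adjusted p = 0.00727). The other called hosts, Snhg7, Dancr, Snhg14, Snhg10 and Snhg17, differed by 0.32 to 2.28. Meg3, Snhg16, Snhg11, Zfas1 and Snhg18 were not called, at 1.19, 0.32, 0.28, 0.15 and −0.23. Further probe sets of the list numbered 19, of which 11 were called higher and 0 lower. Of all probe sets 8.7% were called higher and 9.52% lower. With arrays left out, calls over all probe sets fell from 8206 to 2939 (wild-type replicate 1) and 0 (wild-type replicate 2). The count of 8 became 0 without double mutant replicate 1 or wild-type replicate 2, and 5 without double mutant replicate 2 or wild-type replicate 1.

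**Figure D4:**
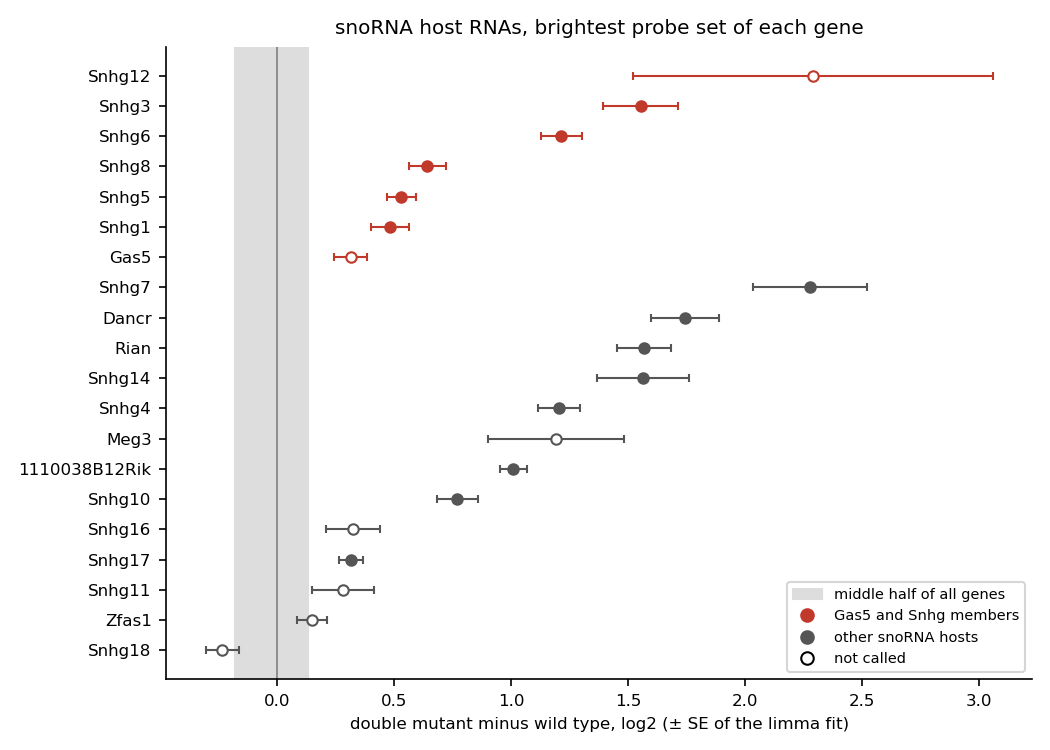
Log2 difference, double mutant minus wild type, by the brightest probe set of 7 selected snoRNA hosts (red) and 13 further hosts (grey), with bars of ± 1 SE; open points were not called. The shaded band spans the lower to the upper quartile of all 18193 genes, −0.18 to 0.14, and 19 of the hosts lie to its right, with Snhg18 at −0.23 to its left.

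Long noncoding RNAs that are not snoRNA hosts were mixed. Of 20 measured, 5 were called higher, 1 lower and 14 not at all, beside 6.56% and 8.14% of all genes, with a median of 0.19. Ftx, a gene of the X inactivation centre, rose by 0.46 ± 0.07 (SE, adjusted p = 0.0224), Firre, an X-linked nuclear RNA, by 1.29 ± 0.16 (SE, adjusted p = 0.0155), and Miat, which forms its own nuclear domains, by 1.81 ± 0.29 (SE, adjusted p = 0.0253). Xist, high in both double mutant arrays and in wild-type replicate 1, differed by 4.15 and was not called, and its part in the values of Ftx and Firre was not tested. The imprinted Mirg and Kcnq1ot1 also rose, by 1.22 and 1.55, while Pvt1 fell by 0.37. The abundant Tug1, Norad and Oip5os1 were not called, at 0.09, 0.18 and 0.06. Over all probe sets 8206 calls became 5108, 2939 and 0 without wild-type replicates 3, 1 and 2 in turn. The count of 6 calls was 0 without double mutant replicate 1, wild-type replicate 2 or wild-type replicate 3, 3 without double mutant replicate 2 and 1 without wild-type replicate 1.

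Genes of the proteins that work with these RNAs gave no direction shared by all lists. Their counts stand beside the 14.7% of all genes called, 6.56% higher and 8.14% lower. Losses of calls with an array left out stand beside those over all probe sets. There 8206 calls became 5108, 2939 and 0 without wild-type replicates 3, 1 and 2 in turn. Among 19 genes of snoRNA-binding proteins and their assembly factors, 2 rose and 1 fell, a share of calls near that of all genes, with a median of 0.00. Nop58 and Nop56, core proteins of box C/D particles, rose by 1.03 ± 0.15 (SE, adjusted p = 0.0199) and 0.51 ± 0.08 (SE, adjusted p = 0.0244), and Ruvbl2, a helicase of the assembly machinery, fell by 1.07 ± 0.08 (SE, adjusted p = 0.00732). That count of 3 was 0 without double mutant replicate 1 or wild-type replicate 2 and 1 without double mutant replicate 2 or wild-type replicate 3. Of 15 paraspeckle protein genes, 6 rose and 1 fell, with a median of 0.23. They included Dazap1 (0.48 ± 0.05, SE, adjusted p = 0.00988) and Cpsf6 (0.65 ± 0.08, SE, adjusted p = 0.0150), both for RNA-processing proteins, Matr3 (0.36), Tardbp (0.43), Ewsr1 (0.35) and Taf15 (3.61), while Pspc1, a core paraspeckle component, fell by 0.47 (adjusted p = 0.0301). Those 7 calls were 4 with equal array medians, 2 without double mutant replicate 2 or by the mean probe set of each gene, 1 without wild-type replicate 1 or 3, and 0 without double mutant replicate 1 or wild-type replicate 2. Of 35 other probe sets of paraspeckle genes, 5 were called higher and 2 lower, where 8.7% of all probe sets were called higher and 9.52% lower. In the nuclear speckle list limma called 1 of 19, Thrap3 (−0.28, adjusted p = 0.0457), with 9 at an unadjusted p under 0.05 (28.7% of all genes). Under equal array medians or quantile normalization 2 others were higher and 0 lower, and of 59 other probe sets of these genes 9 were called higher and 12 lower. The list thus has no settled direction. Son, the speckle scaffold, and Clk1, a kinase of splicing factors, stood at 0.77 and 0.86 (adjusted p = 0.0638 and 0.0529).

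Genes of the decay route, and messenger RNAs with the oligopyrimidine start, had median differences near 0, and here too 14.7% of all genes were called. As above, the 8206 calls over all probe sets became 5108, 2939 and 0 without wild-type replicates 3, 1 and 2 in turn. Among 16 nonsense-mediated decay and exon junction genes, 0 rose and 2 fell, Smg8 (−0.48 ± 0.10, SE, adjusted p = 0.0397) and Rbm8a (−0.32 ± 0.06, SE, adjusted p = 0.0417), with 6 at an unadjusted p under 0.05 (28.7% of all genes) and Casc3 at 0.27 (adjusted p = 0.0646). Of 15 other probe sets of these genes 2 were called higher and 1 lower, where 8.7% of all probe sets were called higher and 9.52% lower. The mean probe set per gene gave 2 higher and 2 lower. Upf1, the central helicase of the pathway, differed by 0.23 and was not called. Of 18 oligopyrimidine messenger RNAs from outside the ribosome, 1 rose, Eif4a2, and 4 fell, with a median of −0.03. No direction held over the probe sets used. Of 27 other probe sets of these genes 5 were called higher and 2 lower, and the mean probe set gave 4 higher and 3 lower. Vim, the mesenchymal intermediate filament gene, fell by 0.69 ± 0.06 (SE, adjusted p = 0.00876), and Eif3h, a translation initiation subunit, by 0.51 ± 0.04 (SE, adjusted p = 0.00859). Of 46 cytosolic ribosomal protein genes, 3 rose, 2 fell and 41 were not called, with a median of 0.00. The rises were those of Rpl12 (2.11 ± 0.20, SE, adjusted p = 0.00937), Rps25 (0.87) and Rps27l (0.65). The falls were those of Rpl27a (−1.13 ± 0.07, SE, adjusted p = 0.00663) and Rpl14 (−0.38). The Rpl12 probe set was dim for this list, with means of 9.35 in double mutants and 7.24 in wild type, where Rpl11 had 13.81 and 13.77. Of 55 other probe sets of ribosomal protein genes 9 were called higher and 1 lower. The mean probe set gave 8 higher and 2 lower, where it called 7.88% of all genes higher and 13.6% lower. The 2 decay calls were lost whichever array was left out, and the 5 and 5 calls of the other lists were 0 without double mutant replicate 1 or wild-type replicate 2. Both fell to 2 without wild-type replicate 1, and they were also 2 without wild-type replicate 3 (oligopyrimidine list) or double mutant replicate 2 (ribosomal list).

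**Figure D5:**
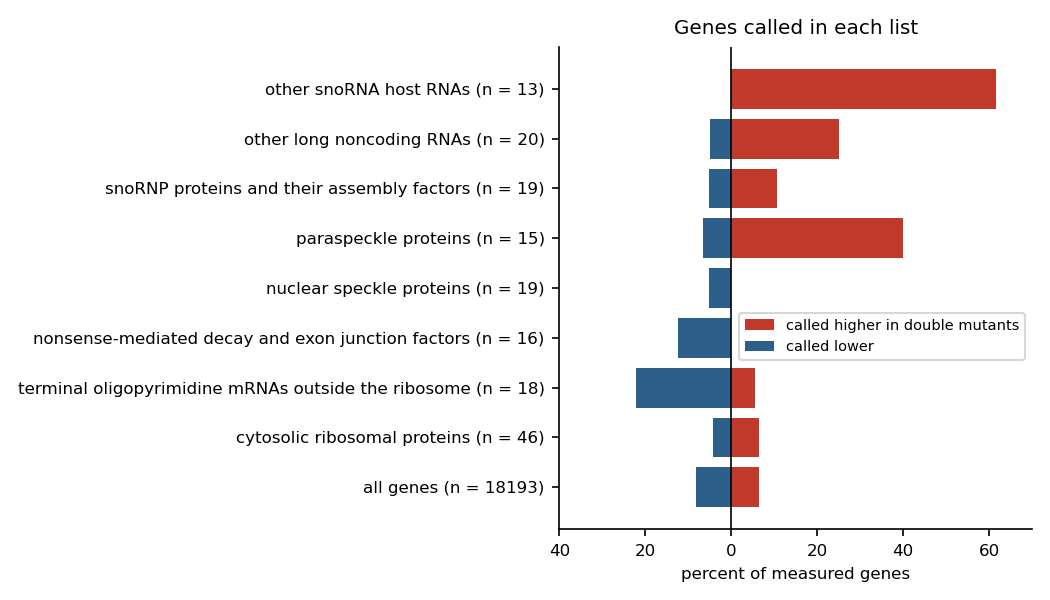
Percent of the measured genes in each list that limma called higher (red, to the right of 0) or lower (blue, to the left) in double mutants, 1 probe set per gene, with all 18193 genes as the bottom bar. Other snoRNA hosts had 8 of 13 called higher and 0 lower, and cytosolic ribosomal proteins 3 of 46 higher and 2 lower.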

How the data were processed

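The deposited values were linear probe set intensities. RMA and limma are named in the submitters' processing notes, which give neither their versions nor what each did. How the authors put these intensities on a linear scale, and their background and normalization settings, are not given in the sources used here. The table held 45101 probe sets, and 64 that serve as controls were set aside. Intensities were not normalized again. Some probe sets held the same value to all digits in more than 1 array. Among them were 1427285_s_at of Malat1 (5.33 in both double mutant arrays) and 1442881_at of Neat1. The latter read 5.53 in double mutant replicate 1 and wild-type replicate 3. The source of these ties was not tested. After taking log2, limma 3.58.1 (R 4.3.3) fitted 1 mean per genotype with empirical Bayes moderation (3 residual and 1.29 prior degrees of freedom), and two-sided p-values were adjusted by the Benjamini-Hochberg method over 45037 probe sets. The brightest probe set of a gene is the one with the highest mean over 5 arrays. Only probe sets with 1 symbol (34945) were named; 932 had several and 9160 none. The identifiers of 34741 matched RefSeq, with 0 symbols changed. The labels number the samples but name no shared litter, and with 5 arrays their number limits the precision. The fit was tested on simulated data.

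Members and lists were chosen with earlier results of these data known. Named were all member probe sets, up to 3 genes of smallest p per list, the 3 nearest patterns of Malat1 and Gas5, and Sost and Sostdc1. Other list genes complete a count, or were picked with their values known, as were the flanking genes, the 18S comparison and the start motifs. The alternatives were equal array medians, quantile normalization, a variance trend, a filter on dim probe sets, a replicate block, the mean probe set per gene, leaving out probe sets that may cross-hybridise, and each array left out in turn.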

Additional observations from a re-analysis of the deposited data

Results flagged for a closer look

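Signal also lay in probe sets outside the gene comparisons. The poly-A spike-ins averaged 7.09 (Dap), 5.23 (Thr), 5.35 (Phe) and 4.86 (Lys) in double mutants on the log2 scale, and 3.30, 3.50, 3.54 and 3.31 in wild type. A pair of probe sets with 2 symbols each entered the fit but were assigned to no gene, and limma called both higher. The probe set 1455904_at, annotated with Snord47 and Gas5 together, averaged 10.42 ± 0.33 (SD, n = 2) in the double mutant arrays against 8.05 ± 0.32 (SD, n = 3). The probe set 1447896_s_at, annotated with Snora24 and Snhg8 together, averaged 12.57 ± 0.18 (SD, n = 2) and 12.02 ± 0.05 (SD, n = 3).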

How the results depend on the processing

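No difference of a member probe set changed sign while called. With the replicate number as a block, 2351 probe sets were called in place of 8206, 4 noncoding RNA probe sets in place of 11, and, by list, 4 other snoRNA hosts, 3 other long noncoding RNAs, 0 snoRNP genes, 1 paraspeckle gene, 0 speckle genes, 0 decay genes, 0 oligopyrimidine messenger RNAs and 1 ribosomal protein gene. The labels do not say that these numbers pair embryos, and the deviations of same-numbered arrays correlated at 0.09 and 0.12. Equal array medians gave 4 paraspeckle and 2 speckle calls. Quantile normalization gave 2 speckle and 3 oligopyrimidine calls. A variance trend gave 3 speckle, 9 oligopyrimidine and 10 ribosomal calls. Without the probe sets that may cross-hybridise, 10 noncoding RNA probe sets were called in place of 11. Leaving out dim probe sets gave 3 speckle calls, and the mean probe set per gene gave 2 paraspeckle, 8 speckle, 4 decay (2 higher, 2 lower) and 10 ribosomal calls (8 higher, 2 lower). With each array left out in turn, calls ran from 0 to 5108 over all probe sets, 0 to 8 for the noncoding RNAs, 0 to 6 for other hosts, 0 to 3 for other long noncoding RNAs and for snoRNP genes, 0 to 2 for paraspeckle and speckle genes, 0 to 0 for decay genes, 0 to 4 for oligopyrimidine messenger RNAs and 0 to 5 for ribosomal proteins. The 3′ minus 5′ difference ran from 0.26 to 0.37 for Gapdh and 0.14 to 0.38 for Actb. The causes were not tested. Precision is limited by 5 arrays, with 2 in 1 group.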
